A study of Mus musculus with 45 samples.

Results

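Follicular B cells, the recirculating naive B cells of the mouse spleen, were compared after 44 h on OP9-DL1 stroma with 1 of 2 stimuli, LPS or anti-IgM. All genes were compared between the 3 LPS libraries and the 3 anti-IgM libraries of this stroma and time, 6 of the 45 RNA-seq libraries of the series. In every group the cells came from spleens of B6.Blimp1GFP/+ mice, which carry 1 green fluorescent reporter allele of Blimp1 (Prdm1). They were plated on confluent stromal monolayers, given LPS purified from Salmonella enterica or F(ab')2 anti-IgM at 10 µg/mL, and sorted as viable cells before polyadenylated RNA was taken. The parallel groups on plain OP9 at 44 h (3 LPS and 3 anti-IgM libraries) served as the comparison for the stroma. The 20 h and 68 h groups on OP9-DL1, with unstimulated cells of 68 h, were used only to place single genes in time. The labels do not say whether replicates were separate mice or cultures, so p-values measure the spread between these libraries, which may be technical.

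OP9 is a mouse bone marrow stromal cell line, and OP9-DL1 is its derivative that expresses Delta-like 1, a ligand of the Notch receptors. Binding of the ligand to Notch2, the main Notch receptor of B cells, releases an intracellular fragment that acts with RBPJ on target genes such as Dtx1 and Hes1. LPS is sensed by Toll-like receptor 4 with MD-2 (Ly96), with a contribution of RP105 (Cd180) in B cells, and signals through MyD88 and TRIF to NF-kB and interferon regulatory factors. Anti-IgM cross-links the B cell receptor, whose kinases Lyn, Syk and Btk drive calcium, NFAT, ERK and NF-kB signals. LPS is the classical stimulus for proliferation, switching to IgG3 and IgG2b and plasmablast formation in culture, and anti-IgM alone is known for activation without antibody secretion. In bulk RNA, fewer cells of a type and less RNA per cell cannot be told apart.

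The 6 libraries held 3560017 to 16324772 estimated reads. In them Actb was at 871 to 1870 TPM (transcript abundance relative to all transcripts of a library), and replicate log2 profiles correlated at 0.959 to 0.976 within the 2 groups (Pearson's r across 12146 genes of 1 pair of libraries at a time, where genes are not independent). In the series 10 libraries, all at 20 h or 68 h, stood apart with Actb of 12355 to 85337 TPM against 217 to 2974 TPM in the other 35, and they took no part in the main test. The summed TPM of 10 B cell markers was 1549 to 1664 with LPS and 2591 to 2739 with anti-IgM, and none of the 10 was at 0. Stromal markers (24 genes) summed to 73.6 to 109 TPM with LPS and 163 to 319 TPM with anti-IgM. Lum and Dcn were at 0 in all 6 libraries, and of 17 tested stromal markers 10 were called lower and 2 higher with LPS, Saa3 (1.94 on log2 of scaled TPM plus 1) and Igfbp4 (1.10). T cell markers (14 genes) summed to 52.2 to 68.0 TPM with LPS and 353 to 373 TPM with anti-IgM, mostly from Lck and Cd2. Of 7 tested T cell markers 4 were called lower with LPS (Lck, Cd2, Trbc2 and Cd3g) and 0 higher. Trac was at 0 in all 6 libraries, but Trbc2 read 0.360, 0 and 0 scaled TPM with LPS and 10.0, 3.74 and 2.90 with anti-IgM, and Cd3g 0, 0 and 0 and 4.51, 1.28 and 0.570. The 15 myeloid markers measured summed to 8.36 to 9.69 TPM with LPS and 28.2 to 33.5 TPM with anti-IgM, with Lyz1, Fcgr1, S100a8, S100a9, Ly6g and Cebpa at 0 throughout. Cd68 read 5.53, 4.79 and 6.70 TPM with LPS and 23.9, 28.9 and 28.2 TPM with anti-IgM. Of 3 tested myeloid markers 1 was called lower with LPS and 0 higher. The 13 NK and red cell markers summed to 8.68 to 14.4 TPM with LPS and 8.68 to 49.5 TPM with anti-IgM. Among these Nkg7, a granule protein of killer lymphocytes, was listed at 0 in the 3 LPS libraries and read 12.3, 5.10 and 3.31 scaled TPM with anti-IgM. The part of these cell types in the results below was not tested. Another setting ended the calls of Saa3 (without any 1 of the 6 libraries or of plain OP9 LPS replicate 3 and plain OP9 anti-IgM replicate 2 or on the TPM as deposited, on the authors' log2 values, with a pseudocount of 0.1 or with no expression filter, adjusted p up to 0.14) and Igfbp4 (without any 1 of LPS replicates 1 and 2 and anti-IgM replicates 2 and 3, adjusted p up to 0.075).

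Of 12146 genes tested, 3286 (27.1%) differed between the stimuli at an adjusted p under 0.05. LPS cells were higher for 1748 genes (14.4%) and anti-IgM cells for 1538 (12.7%), and 1178 of the called genes differed by more than 1 on the log2 scale. Every count of called list members on OP9-DL1 below is to be read beside these shares of all genes. The unit behind all values below is TPM divided by a scaling factor of the library (scaled TPM), differences are LPS minus anti-IgM on log2(scaled TPM + 1), which understates the change of low genes, and adjusted p-values are limma's with Benjamini-Hochberg adjustment over all 12146 genes. The direction of small differences depended on scaling. With the TPM as deposited the median of all genes moved from 0.02 to -0.12, and the split of the 3141 called genes became 1063 higher and 2078 lower with LPS. The log2 values that the authors deposited gave 1367 higher and 1862 lower. A fit over all 45 libraries, which pools the spread of the libraries that stand apart, called 454 genes, 446 of them among the 3286, and a fit over the other 35 called 1393. Groups whose median lies within about 0.2 of 0 are therefore described by counts and given no direction. On plain OP9, 5158 genes (42.5%) were called, 2865 higher (23.6%) and 2293 lower (18.9%) with LPS. There the split became 1766 higher and 3728 lower on the TPM as deposited and 2190 and 3126 on the authors' log2 values. Unless a fit is named, notes beside single genes on calls lost or reached leave out the fits over 45 and 35 libraries. They also leave out a fit with the replicate number as a block. Of 214 named genes called on OP9-DL1, 104 were also called over 45 libraries, 153 over 35 and 208 with the block. A gene without a note can therefore have lost its call in these fits.

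**Figure D1:**
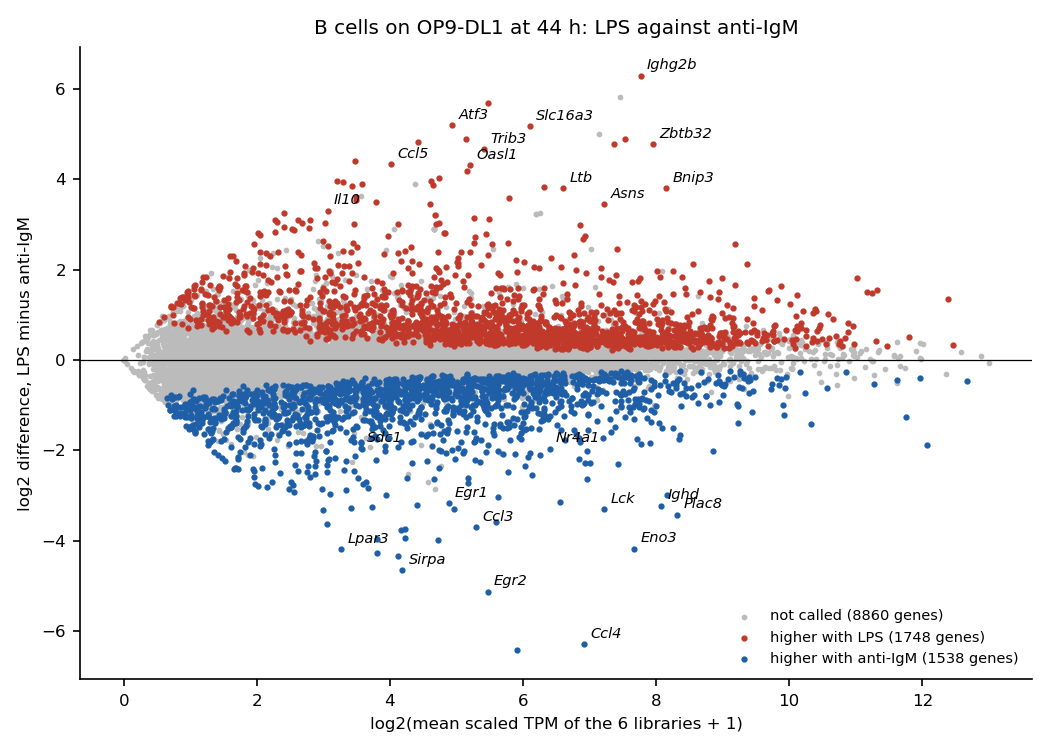
Each point is 1 of 12146 genes in B cells on OP9-DL1 at 44 h: the horizontal axis is the log2 of the mean scaled TPM of the 6 libraries plus 1, the vertical axis the log2 difference LPS minus anti-IgM, red and blue points are called genes and grey points are not called. Genes called higher with LPS number 1748 and genes called higher with anti-IgM 1538, with Ighg2b, Atf3 and Slc16a3 at the upper edge and Ccl4 and Egr2 at the lower edge.

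The genes furthest to the LPS side included Ighg2b (6.29), the stress factor Atf3 (5.20), the lactate exporter Slc16a3 (5.17), the arginine and lysine carrier Slc7a3 (4.89), the vesicle protein Sytl3 (4.82), the transcriptional repressor Zbtb32 (4.77), Trib3 (4.66), the chemokine Ccl5 (4.33), Oasl1 (4.32) and the glutathione-degrading Chac1 (4.04). Ndufa4, Rps6-ps4 and Dynlt1-ps1 also met the size rule but are pseudogenes or have near-identical copies among which reads can be split, so their values are uncertain (adjusted p = 0.022, 0.038 and 0.016). In the Rps6-ps4 row, for example, the anti-IgM libraries read 0.000363, 196 and 4.22 scaled TPM. The embryonic globin gene Hbb-bh1 was listed at 0 in the 3 anti-IgM libraries and read 17.5, 23.1 and 20.2 scaled TPM with LPS. Not every setting kept the calls of Ndufa4 (without any 1 of LPS replicates 1 and 2 and anti-IgM replicates 1 and 2, adjusted p up to 0.069), Rps6-ps4 (without any 1 of LPS replicates 1, 2 and 3, anti-IgM replicates 1 and 3, plain OP9 LPS replicate 2 and plain OP9 anti-IgM replicates 2 and 3 or in a fit of the 6 libraries alone, on the TPM as deposited, after quantile normalization, on the authors' log2 values or with a pseudocount of 0.1, adjusted p up to 0.12) and Dynlt1-ps1 (without LPS replicate 2 or in a fit of the 6 libraries alone, adjusted p up to 0.06).

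The genes furthest to the anti-IgM side were the chemokines Ccl4 (-6.29) and Ccl3 (-3.70), the calcium-ERK response factor Egr2 (-5.13), the inhibitory myeloid receptor Sirpa (-4.64), the Ras-like GTPase Rasd1 (-4.34), the calmodulin-binding proteins Nrgn (-4.27) and Pcp4 (-3.97), the enolase Eno3 (-4.18), Rasgef1b (-3.98), Rgs10 (-3.95), the macrophage growth factor Csf1 (-3.76), Pacsin1 (-3.74), the urokinase receptor Plaur (-3.58) and Plac8 (-3.42). Lpar3, a lysophosphatidic acid receptor, was listed at 0 in the 3 LPS libraries and read 17.3, 17.1 and 17.5 scaled TPM with anti-IgM.

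Antibody genes split by isotype. Ighg2b, the IgG2b constant region, read 397, 484 and 409 scaled TPM in the 3 LPS libraries and 4.69, 3.88 and 4.91 in the 3 anti-IgM libraries. The lowest LPS library was 80.9-fold above the highest anti-IgM library, and the difference was 6.29 ± 0.18 (SE; adjusted p = 4.4e-09). Ighg3 (2.07) and Ighg2c (3.00) were also called higher with LPS, and Ighg1 (-1.74) and Ighd (-3.23) lower. Ighd, the IgD constant region of naive B cells, read 51.2, 52.3 and 49.5 scaled TPM with LPS and 463, 527 and 468 with anti-IgM (adjusted p = 4.4e-09). Ighm, the IgM constant region, was not called (0.12; adjusted p = 0.32), nor was Igha (0.39). Immunoglobulin genes as a whole took 2.09 to 2.15% of TPM with LPS and 2.32 to 2.52% with anti-IgM. Near-identical constant regions can exchange reads, so the split among IgG subclasses carries that uncertainty.

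Of 16 class switch and mutation genes, 6 were called higher and 2 lower with LPS, with a median of 0.11 that stood at -0.05 on the TPM as deposited. Higher members included the AP-1 family factor Batf (2.12), the RNA editor Apobec1 (1.89) and the DNA end-binding Xrcc6 (0.70). Apobec3 (-0.61) was among the lower members. The mutation repair genes Ung (-0.28), Exo1 (-0.30) and Polh (-0.07) were not called.

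Plasma cell regulators did not move as 1 block. Zbtb32, a repressor made by plasma cells and activated B cells, read 452, 522 and 453 scaled TPM with LPS and 24.2, 16.7 and 10.9 with anti-IgM, a difference of 4.77 ± 0.21 (SE; adjusted p = 6.6e-08). Prdm1, which encodes Blimp1, the driver of plasma cell formation, read 6.04, 3.45 and 3.65 scaled TPM with LPS and 1.61, 0.790 and 0.838 with anti-IgM. The groups did not overlap and the difference was called (1.36; adjusted p = 0.0019), but no library of the 6 passed 6.04 scaled TPM. Irf4, which at high levels promotes plasma cells, read 19.7, 17.2 and 23.7 with LPS and 27.0, 24.3 and 24.9 with anti-IgM. Those ranges did not overlap, with anti-IgM above, and Irf4 was not called (adjusted p = 0.091). Xbp1, the secretory programme factor, was -0.24 (adjusted p = 0.038). Of the 9 plasma cell transcription factors listed, 5 were called higher (Zbtb32, Prdm1, Zbtb20 1.21, Ikzf3 1.10 and Atf6 0.62) and 1 lower (Xbp1), with a median of 0.62. Leaving out libraries or rescaling ended the call of Xbp1 (without any 1 of the 6 libraries or of plain OP9 LPS replicate 1 or in a fit of the 6 libraries alone or with no expression filter, adjusted p up to 0.11). A call was reached for Irf4 (without LPS replicate 3 or on the TPM as deposited or on the authors' log2 values, adjusted p down to 0.029).

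Of 21 tested genes of plasma cell surface and secretion, 9 were higher and 2 lower with LPS, with a median of 0.70 against 0.02 for all genes. The higher members included Eaf2 (1.74), the BAFF and APRIL receptor TACI (Tnfrsf13b, 1.53), Fkbp11 (1.40) and Mzb1 (1.05), a chaperone of antibody assembly. Sdc1, the plasma cell surface marker CD138, went the other way: it read 3.25, 4.59 and 3.78 scaled TPM with LPS and 19.8, 15.6 and 17.9 with anti-IgM (-1.95; adjusted p = 2.4e-06). Slamf7 was also lower (-0.75). Igj, the joining chain of secreted IgM, read 24.5, 25.3 and 27.5 with LPS and 14.9, 14 and 17.7 with anti-IgM. Those ranges did not overlap, and the adjusted p was 0.084, above the threshold. Among 30 chaperone and unfolded protein response genes, 7 were higher and 3 lower, Spcs2 (-0.96), Pdia3 (-0.30) and Xbp1 (median 0.08, and -0.08 on the TPM as deposited). Some settings did not give the calls of Spcs2 (without any 1 of LPS replicates 2 and 3 and anti-IgM replicates 1, 2 and 3 or with no expression filter, adjusted p up to 0.096) and Pdia3 (without any 1 of LPS replicates 2 and 3 and anti-IgM replicates 2 and 3 or in a fit of the 6 libraries alone, adjusted p up to 0.089). A call was reached for Igj (without plain OP9 LPS replicate 2 or in a fit of the 6 libraries alone, adjusted p down to 0.015).

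**Figure D2:**
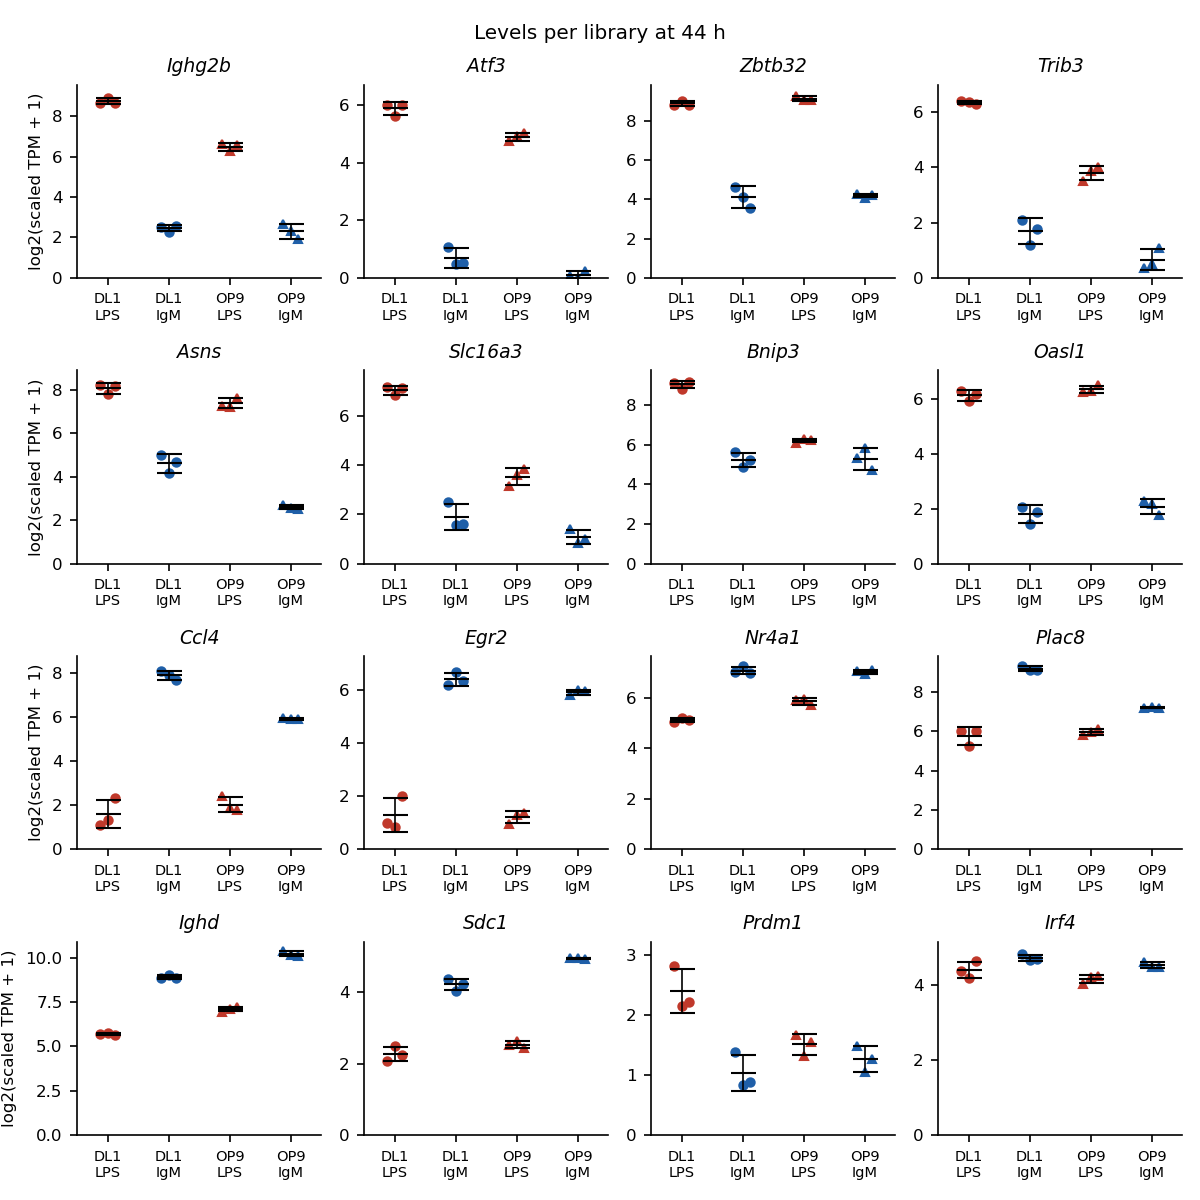
Each panel plots 1 gene at 44 h, with the log2 of scaled TPM plus 1 on the vertical axis, 1 point per library (circles on OP9-DL1, triangles on plain OP9; red LPS, blue anti-IgM), and bars for the mean and 1 SD of 3 libraries. On OP9-DL1 the LPS and anti-IgM libraries do not overlap in any panel, and they lie closest for Irf4, which was not called. No overlap was part of the rule by which called genes with the largest differences and called list members were named.

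The amino acid response was among the groups with most members on the LPS side. ATF4 is the factor made when amino acids run short or the endoplasmic reticulum is stressed, and it drives asparagine and serine synthesis, amino acid import and tRNA charging. Of 28 tested members of this list 23 were called higher with LPS and 0 lower, with a median of 1.18. Trib3, a pseudokinase that feeds back on ATF4, read 83.5, 81.1 and 78.1 scaled TPM with LPS and 3.31, 1.30 and 2.40 with anti-IgM. The LPS libraries spanned 5.43 scaled TPM and lay far above the anti-IgM libraries (4.66 ± 0.25, SE; adjusted p = 2.1e-07). Asns, asparagine synthetase, read 302, 222 and 292 with LPS and 31.5, 17.0 and 24.7 with anti-IgM (3.46; adjusted p = 3.4e-07).

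The stress-induced chromatin protein Nupr1 (3.88), proline synthesis genes Pycr1 (2.39) and Aldh18a1 (1.74), the mTORC1 inhibitor Sesn2 (2.38), the serine synthesis enzymes Psat1 (1.73), Psph (1.20) and Phgdh (1.16), the carriers Slc1a4 (1.92) and Slc7a5 (1.60), the death-promoting factor Ddit3 (1.61) and Atf4 itself (1.35) were all called higher. Atf5 was not called (-0.14). Atf3, grouped here with the immediate early genes, is induced by ATF4 too. It read 63.6, 48.5 and 63.8 scaled TPM with LPS and 1.11, 0.400 and 0.424 with anti-IgM, and no anti-IgM library passed 1.11 scaled TPM (5.20 ± 0.20, SE; adjusted p = 3.4e-08).

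The windows upstream of 3 of these genes are shown because each holds letters of the element that dimers of ATF4 are known to bind. The 150 bases before each annotated start are given 5′ to 3′ on the gene's strand from RefSeq (GRCm38.p6), and the capitals mark a match to TGATGNAA, searched on both strands. The window of Asns is chr6:7693210-7693359 on the minus strand, that of Atf3 chr1:191183334-191183483 on the minus strand and that of Nupr1 chr7:126625471-126625620 on the minus strand.
Asns: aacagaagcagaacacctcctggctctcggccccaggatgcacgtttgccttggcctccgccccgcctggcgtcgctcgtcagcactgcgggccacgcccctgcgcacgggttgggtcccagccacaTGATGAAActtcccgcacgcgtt
Atf3: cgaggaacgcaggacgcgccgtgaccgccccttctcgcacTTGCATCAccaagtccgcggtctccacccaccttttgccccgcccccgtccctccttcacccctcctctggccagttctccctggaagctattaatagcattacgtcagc
Nupr1: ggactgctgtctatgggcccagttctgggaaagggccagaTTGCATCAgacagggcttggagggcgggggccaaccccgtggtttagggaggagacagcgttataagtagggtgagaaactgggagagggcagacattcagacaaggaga
In 250 bases upstream, TGATGNAA was found in 8 of 24 matched genes of the amino acid list (33.3%), against 2.47% of the 8368 tested genes with a promoter entry. A match is a description of the letters and not a site of binding. Among all genes called higher with LPS the share was 3.09%, and among those called higher with anti-IgM it was 2.72%. The list was drawn up around genes known to be driven by ATF4, so its share does not bear on the stimuli.

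Glycolysis and low-oxygen response genes formed the list with the highest share of called members. HIF-1 is the factor that raises glucose uptake, glycolysis, lactate export and mitophagy genes when oxygen is low, and it is also raised by LPS signalling. With LPS 28 of 30 members were higher and 0 lower, and the median was 1.57. Slc16a3, which exports lactate, read 144, 114 and 139.9 scaled TPM with LPS and 4.61, 1.96 and 2.01 with anti-IgM, a difference of 5.17 ± 0.27 (SE; adjusted p = 1.7e-07). Bnip3, a mitophagy receptor, read 560.2, 452 and 572 with LPS and 47.8, 28.6 and 36.1 with anti-IgM (3.80; adjusted p = 7.7e-07). The lowest LPS library was 24.7-fold above the highest anti-IgM library for Slc16a3 and 9.45-fold above it for Bnip3.

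The low-oxygen genes Aldoc (3.11), Egln3 (3.10), Vegfa (3.01), Ddit4 (2.74), Ankrd37 (2.69) and Pdk1 (2.26) had larger differences than most enzymes of the pathway itself. Among those, Hk2 was 2.06, Pfkl 1.98, Aldoa 1.81, Tpi1 1.64, Pkm 1.5, Ldha 1.34 and Gapdh 0.75, and all were called. Ldha, lactate dehydrogenase A, already stood at 3117, 2853 and 3056 scaled TPM with anti-IgM and reached 8019.8, 6493 and 8489 with LPS. Ndrg1, a known low-oxygen target, was not called (-0.47), and Car9 was the other member not called (1.13). Eno3, the muscle-type enolase and no member of the list, was lower with LPS (-4.18), while Eno1 was higher (1.54). A call was reached for Car9 (without LPS replicate 1, adjusted p = 0.048).

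The upstream windows of Bnip3 (chr7:138909507-138909656, minus strand) and Slc16a3 (chr11:120948917-120949066, plus strand) are shown as the 2 most changed members; capitals mark ACGTG, the core letters of the HIF element, on either strand.
Bnip3: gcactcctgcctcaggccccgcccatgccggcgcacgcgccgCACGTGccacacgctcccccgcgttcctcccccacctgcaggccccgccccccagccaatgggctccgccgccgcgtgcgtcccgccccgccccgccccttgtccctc
Slc16a3: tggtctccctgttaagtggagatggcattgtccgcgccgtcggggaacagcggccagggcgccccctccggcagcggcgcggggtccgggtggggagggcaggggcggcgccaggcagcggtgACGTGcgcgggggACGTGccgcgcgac
ACGTG was found within 250 bases upstream in 16 of 26 matched genes of the list (61.5%) and in 25.8% of the 8368 tested genes. Its share was 28.3% among all genes called higher with LPS and 25.5% among those called higher with anti-IgM. The list was chosen for known low-oxygen and glycolysis genes, so its share does not bear on the stimuli. The 5 letters also occur in E-boxes such as CACGTG, as in the Bnip3 window.

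Interferon response genes were higher with LPS as a group. Type I interferon signals through STAT2 and IRF9, among others, to antiviral effectors. Of 30 tested members 23 were higher and 1 (Zbp1, -0.54) was lower, with a median of 1.36. Oasl1, a translation inhibitor of the OAS family, read 77.7, 59.2 and 70.8 scaled TPM with LPS and 3.22, 1.73 and 2.72 with anti-IgM (4.32 ± 0.20, SE; adjusted p = 7.5e-08). Isg15, a ubiquitin-like modifier, read 207, 167 and 238 with LPS and 30.8, 19.6 and 25.0 with anti-IgM (2.98; adjusted p = 3.5e-07). Ifit1 (3.04), the exonuclease Isg20 (2.59), the GTPases Gbp2 (2.35) and Gbp3 (1.93) and the deconjugase Usp18 (2.15) followed. Irf9 (0.79) was higher, while Stat2 (-0.18), Irf1 (0.29), Ifit2 (0.05), Ifit3 (0.53) and Mx1 (0.56) were not called.

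For Ifit1 (chr19:34640739-34640888, plus strand) and Isg15 (chr4:156200819-156200968, minus strand) the upstream windows hold repeated matches to the letters GAAA followed, after any 2 bases, by a second GAAA, the core of the interferon-stimulated response element, marked in capitals on either strand.
Ifit1: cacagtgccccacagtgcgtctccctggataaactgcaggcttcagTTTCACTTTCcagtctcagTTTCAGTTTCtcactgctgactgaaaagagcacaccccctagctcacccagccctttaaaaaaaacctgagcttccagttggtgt
Isg15: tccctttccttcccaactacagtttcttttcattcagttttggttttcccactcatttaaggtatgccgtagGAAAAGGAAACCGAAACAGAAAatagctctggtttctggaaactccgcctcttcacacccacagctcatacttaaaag
Within 250 bases, 12 of 23 matched interferon genes (52.2%) held it, against 3.29% of the 8368 tested genes. The share was 4.68% among all genes called higher with LPS and 3.16% among those called higher with anti-IgM. The list was chosen for known interferon response genes, so its share does not bear on the stimuli.

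The cytokine genes that could be tested were mostly on the LPS side. Of 23 listed, 13 were tested, 9 were higher and 2 lower with LPS, and the median was 1.46. A gene could pass the filter of 1 TPM in 3 of the 12 libraries through the group where it was high. The counts and the median of this small list rest in part on that selection. Il10, an anti-inflammatory cytokine of activated B cells, read 13.7, 13.5 and 15.2 scaled TPM with LPS and 1.04, 0.624 and 0.0693 with anti-IgM (3.31; adjusted p = 2.8e-06). Il6 was listed at 0 in every anti-IgM library and read 6.10, 1.99 and 4.66 with LPS, and Il27 was listed at 0 in them too against 9.09, 6.0 and 8.03 with LPS. Ltb, a membrane lymphotoxin that organises lymphoid tissue, read 167, 219.6 and 152 with LPS and 17.7, 8.58 and 10.7 with anti-IgM (3.80; adjusted p = 2.6e-07). Lta was 2.32 and Vegfa 3.01. On the anti-IgM side were Csf1 (-3.76) and Il18 (-2.47).

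Chemokines divided between the stimuli, with 2 of 6 tested genes higher and 2 lower with LPS. Ccl4, an inflammatory chemokine, read 1.16, 1.54 and 3.97 scaled TPM with LPS and 273, 234 and 204 with anti-IgM. The lowest anti-IgM library was 51.3-fold above the highest LPS library (-6.29 ± 0.27, SE; adjusted p = 6.6e-08). Ccl3, a related chemokine, read 4.01, 3.66 and 6.63 with LPS and 71.5, 69.2 and 75.4 with anti-IgM. Ccl5, another inflammatory chemokine, went the opposite way, at 42.1, 18.6 and 28.8 with LPS and 0, 0 and 2.08 with anti-IgM. Cxcl10 was listed at 0 with anti-IgM and read 6.61, 4.84 and 6.95 with LPS. Ccl22 did not differ beyond its spread (-0.29; adjusted p = 0.28).

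Most genes of Toll-like receptor sensing were not called. Of 21 tested, 2 were higher, 6 lower and 13 not called, where 14.4% of all genes were higher and 12.7% lower with LPS. The median was -0.38, and Cd14 was below the expression filter. Tlr4, the LPS receptor, was not called (-0.17), and its partner Ly96 was 0.58, also not called. Cd180, the related RP105, read 13.9, 12.8 and 13.1 scaled TPM with LPS and 41.3, 41.2 and 28.2 with anti-IgM (-1.39; adjusted p = 7.3e-05). The adaptor Myd88 (-0.72) and Unc93b1 (-0.76), the trafficking factor of endosomal receptors, were lower too. The 2 higher members were the negative regulator Irak3 (0.78) and the kinase Irak2 (0.52). Another setting ended the call of Irak2 (on the TPM as deposited, adjusted p = 0.068). The fit over all 45 libraries ended the calls of Cd180 (limma, adjusted p = 0.42), Myd88 (0.94), Unc93b1 (0.80), Irak3 (0.68) and Irak2 (0.84). In the fit over 35 libraries Cd180 (limma, adjusted p = 0.053), Irak3 (0.17) and Irak2 (0.15) were not called.

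NF-kB genes were divided by subunit and role: 9 of 22 were higher and 5 lower with LPS, with a median of 0.31. Higher were the nuclear inhibitor family member Nfkbiz, needed for secondary LPS genes such as Il6, at 29.4, 27.0 and 35.4 scaled TPM with LPS and 5.55, 5.28 and 3.89 with anti-IgM (2.42; adjusted p = 8.5e-07), and the feedback inhibitor Nfkbia (1.60). Traf1 (1.35), Tnfaip3 (0.74) and Nfkb2 (0.41) were also higher. Lower was Rel, the c-Rel subunit induced by the B cell receptor, at 17.2, 14.2 and 16.6 with LPS and 69.1, 71.2 and 67.0 with anti-IgM (-2.05; adjusted p = 1.4e-06). Nfkbid (-1.36), Nfkbie (-0.95), Tnip2 (-0.97) and the adhesion molecule Icam1 (-0.55) went with Rel, and Nfkb1 was not called (0.04). Not every setting kept the call of Nfkb2 (on the TPM as deposited, adjusted p = 0.079).

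Immediate early genes, which respond within minutes to calcium and ERK signals of the B cell receptor, were more often lower than higher with LPS at 44 h. Of 23 tested members, 13 were lower and 4 higher with LPS, with a median of -1.02. Egr2 read 0.977, 0.803 and 3.05 scaled TPM with LPS and 71.7, 102 and 81.3 with anti-IgM (-5.13 ± 0.27, SE; adjusted p = 1.8e-07). Its relatives Egr1 (-3.17) and Egr3 (-2.45) and the calcineurin-regulated Nfatc1 (-2.64) followed. Nr4a1, the orphan nuclear receptor Nur77 used as a reporter of antigen receptor signals, read 31.6, 35.6 and 33.2 with LPS and 128, 149.8 and 124 with anti-IgM (-1.96; adjusted p = 2e-07). Fos (-1.97) and Spry2 (-1.82) were lower with LPS as well. The 4 members higher with LPS were Atf3, Jun (2.12), Ier3 (1.33) and Junb (0.60). Leaving out libraries or rescaling ended the calls of Ier3 (without LPS replicate 1 or on the authors' log2 values or with a pseudocount of 0.1, adjusted p up to 0.083) and Junb (without anti-IgM replicate 2 or on the TPM as deposited or after quantile normalization, adjusted p up to 0.077).

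The components of the B cell receptor pathway were themselves lower with LPS for 12 of 30 members and higher for 3, with a median of -0.29. Vav3, an exchange factor that links the receptor to Rac, read 1.03, 1.47 and 0.681 scaled TPM with LPS and 11.8, 8.68 and 11.0 with anti-IgM (-2.49; adjusted p = 1.9e-05). Lyn (-1.07), the adaptor Blnk (-0.95), the paracaspase Malt1 (-0.86) and the signalling chains Cd79a (-0.72) and Cd79b (-0.55) were lower. Syk (0.89), the complement receptor Cr2 (0.69) and Rasgrp3 (0.37) were higher. Lck, a Src family kinase of T cells that some B cells express, read 21.7, 37.6 and 22.7 with LPS and 251, 268 and 289 with anti-IgM (-3.30; adjusted p = 3.8e-07). Trbc2, a chain of the T cell receptor, was also called lower with LPS (-2.41), and the part of T cells in the Lck value was not tested. The call of Cd3g, listed at 0 with LPS, was lost without any 1 of the 3 LPS libraries or anti-IgM replicate 1. Some settings did not give the calls of Cr2 (without any 1 of LPS replicates 1 and 3 and anti-IgM replicates 1 and 3 or in a fit of the 6 libraries alone, on the TPM as deposited or with no expression filter, adjusted p up to 0.1) and Rasgrp3 (without any 1 of LPS replicates 1 and 3 and anti-IgM replicates 1 and 2 or in a fit of the 6 libraries alone, on the TPM as deposited, after quantile normalization, on the authors' log2 values or with no expression filter, adjusted p up to 0.27).

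Inhibitory receptors were mixed, 5 higher and 9 lower with LPS of 18, with a median of -0.38. The receptor PD-1 (Pdcd1) read 4.94, 4.26 and 5.15 scaled TPM with LPS and 51.7, 53.6 and 62.3 with anti-IgM, and Lag3 read 0.457, 0.240 and 0.298 and 6.24, 11.2 and 9.14. The differences were -3.30 and -2.86, and both were called. Cd5 (-2.20) and Pirb (-1.64) were also on the anti-IgM side. Fcrl5, an Fc receptor-like molecule of marginal zone B cells and plasma cells, read 46.7, 35 and 48.7 with LPS and 1.43, 3.44 and 4.88 with anti-IgM (3.46; adjusted p = 5.6e-06). Lair1 (2.29), Cd300a (1.96), Tigit (1.31) and the inhibitory Fc receptor Fcgr2b (1.03) were higher with LPS. Another setting ended the call of Tigit (without any 1 of LPS replicates 2 and 3 or in a fit of the 6 libraries alone or on the authors' log2 values, adjusted p up to 0.061).

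Costimulatory molecules divided 6 higher to 5 lower with LPS of 18 (median -0.16). Cd40, which receives T cell help, read 223, 223 and 247 scaled TPM with LPS and 64.1, 50.0 and 54.3 with anti-IgM (2.03; adjusted p = 3.8e-07). The activation marker Cd69 was 2.16 and Cd80 was 0.76. Cd86, the other ligand of CD28, read 32.3, 23.7 and 36.0 with LPS and 76.4, 94.0 and 82.8 with anti-IgM (-1.45; adjusted p = 4.3e-05), and the others lower were Cd83 (-1.22), Tnfrsf18 (-1.40), Tnfrsf4 (-0.89) and Cd44 (-0.48). Not every setting kept the calls of Cd80 (without any 1 of LPS replicates 1 and 3 and anti-IgM replicate 2 or in a fit of the 6 libraries alone, adjusted p up to 0.066), Tnfrsf4 (without any 1 of LPS replicates 1 and 2 and anti-IgM replicate 1, adjusted p up to 0.077) and Cd44 (without LPS replicate 1, adjusted p = 0.067).

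Homing and egress receptors were the list with the highest share on the anti-IgM side: 13 of 20 were lower with LPS and 1, Cxcr5 (0.95), was higher, with a median of -0.74. Ccr6, the receptor of CCL20, read 19.6, 13.7 and 21.9 scaled TPM with LPS and 161, 161 and 184 with anti-IgM (-3.15; adjusted p = 2.4e-07). S1pr1, which directs exit from lymphoid organs, read 3.31, 1.20 and 2.63 and 11.7, 12.8 and 11.7 (-2.0; adjusted p = 0.00012). The integrin chain Itga4 (-1.66), Gpr183 (-1.65), which guides cells to the outer follicle, and Ccr7 (-0.77) were lower. Cxcr4 (0.42) and Klf2 (0.34), the factor that maintains S1pr1, were not called.

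MHC class II presentation genes were lower for 7 of 14 and higher for 2 with LPS, with a median of -0.32. H2-Ob (-1.39) and H2-Oa (-1.14), the chains of the DO modulator, the protease Ctss (-1.11), the invariant chain Cd74 (-0.47) and H2-Aa (-0.55) were lower. The transactivator Ciita (0.73) and the DM chain H2-DMb1 (0.41) were higher, and H2-Ab1 was not called (0.09). Leaving out libraries or rescaling ended the call of H2-DMb1 (without any 1 of LPS replicates 2 and 3, anti-IgM replicates 1, 2 and 3, plain OP9 LPS replicate 2 and plain OP9 anti-IgM replicates 1, 2 and 3 or in a fit of the 6 libraries alone, on the TPM as deposited, after quantile normalization, on the authors' log2 values or with no expression filter, adjusted p up to 0.25).

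B cell identity genes gave 6 higher and 10 lower of 25 (median 0.04, and -0.11 on the TPM as deposited). The transcription factors Ebf1 (0.92), at 117, 206 and 91.2 scaled TPM with LPS and 72.6, 64.5 and 67.5 with anti-IgM, and Pax5 (0.77) were higher with LPS. Ms4a1 (CD20, -1.07), Spib (-1.0), Id3 (-0.94) and Fcrla (-2.28) were lower. Bach2 (0.01) and Bcl6 (0.33), repressors that hold off plasma cell fate, were not called. Among the 19 genes that mark marginal zone or follicular B cells, 4 were higher and 7 lower (median -0.37). Fcer2a, the follicular marker CD23, read 45.7, 33.4 and 52.3 scaled TPM with LPS and 11.8, 14.7 and 10.8 with anti-IgM (1.72; adjusted p = 2.2e-05), and Cr2 (CD21, 0.69), Cxcr5 (0.95) and Lmo2 (1.99) were the other higher members. Plac8 read 63.2, 37.0 and 64.3 with LPS and 638, 556 and 549 with anti-IgM (-3.42 ± 0.18, SE; adjusted p = 1.6e-07), and Cd1d1 was -1.01. Some settings did not give the calls of Ebf1 (in a fit of the 6 libraries alone, adjusted p = 0.051) and Pax5 (without any 1 of LPS replicate 3 and anti-IgM replicate 2 or in a fit of the 6 libraries alone or on the TPM as deposited, adjusted p up to 0.066).

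Notch target genes gave no common direction between the stimuli: 2 of 11 tested were higher and 3 lower with LPS (median 0.05, and -0.10 on the TPM as deposited). Dtx1, a direct Notch2 target of marginal zone B cells, read 52.9, 40.1 and 36.3 scaled TPM with LPS and 38.9, 48.4 and 54.3 with anti-IgM and was not called (-0.13; adjusted p = 0.8). Hes1 read 2.44, 5.18 and 1.04 and 2.57, 1.36 and 3.32 (0.08), and Nrarp was 0.27; neither was called. Notch2 read 4.44, 5.87 and 4.22 with LPS and 2.19, 2.20 and 2.49 with anti-IgM (0.82; adjusted p = 0.004). Trib2 (1.52) was higher, and Hes5 (-0.92), Gpr183 and Cd5 were lower. The ligand transcript Dll1, which the stroma expresses, read 1.28, 0.55 and 4.09 TPM with LPS and 26.4, 6.17 and 9.40 TPM with anti-IgM (-2.18 on the scaled log2 values; adjusted p = 0.0081), beside summed stromal markers of 73.6 to 109 and 163 to 319 TPM. Whether ligand exposure differed between the stimuli was not tested. Of 24 tested Notch receptor and pathway genes, 1 was higher and 3 lower (Dll1, Adam10 -1.12 and Jag2 -0.99). Another setting ended the call of Hes5 (without any 1 of LPS replicates 1 and 2 and anti-IgM replicates 1 and 3 or in a fit of the 6 libraries alone, adjusted p up to 0.061).

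Growth genes on this stroma are given by their counts, to be read beside the 27.1% of all genes called. DNA replication genes were higher for 7 and lower for 2 of 30 (median 0.09, and -0.06 on the TPM as deposited), with Pola1 (1.02) and Tyms (0.56) up and Pcna (-0.24) and Rfc5 (-0.32) down. Mitosis genes were 8 higher and 4 lower of 30 with a median of 0.00, and the lower ones were Cenpa (-0.56), Nuf2 (-0.52), Kif11 (-0.42) and Kif20a (-0.36). Among 17 cyclins and their kinases 4 were higher, Ccnd2 (1.22), Ccnd3 (0.82), Ccnb1 (0.50) and Ccnb2 (0.32), and 1 lower, Cdc25b (-0.42). Ribosome biogenesis genes were 9 higher and 0 lower of 30 with a median of 0.25. Myc, a growth-promoting transcription factor upstream of many of them, read 205, 189 and 207 scaled TPM with LPS and 189, 182 and 195 with anti-IgM. It was not called (0.08, limma, adjusted p = 0.48). Not every setting kept the calls of Pcna (without any 1 of the 6 libraries or in a fit of the 6 libraries alone, adjusted p up to 0.089), Rfc5 (without any 1 of LPS replicates 1 and 3 and anti-IgM replicates 2 and 3, adjusted p up to 0.077), Kif11 (without any 1 of LPS replicate 2 and anti-IgM replicate 2, adjusted p up to 0.072), Ccnb1 (on the TPM as deposited or after quantile normalization, adjusted p up to 0.11), Ccnb2 (on the TPM as deposited or after quantile normalization, adjusted p up to 0.27) and Cdc25b (without any 1 of LPS replicates 1 and 3 and anti-IgM replicate 1, adjusted p up to 0.068).

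Sterol and respiration genes leaned to LPS. Cholesterol and fatty acid synthesis genes were 16 higher and 1 lower (Scd1, -0.45) of 29, with a median of 0.57. Fdps, which makes farnesyl diphosphate, read 780.2, 768 and 819 scaled TPM with LPS and 209, 225 and 234 with anti-IgM (1.82; adjusted p = 7.5e-08), and Mvd was 1.34. Oxidative phosphorylation genes were 16 higher and 0 lower of 31 with a median of 0.40; Atp5g1 (1.09) and Uqcrq (1.02) came next after the uncertain Ndufa4.

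Survival genes opposed one another. Of 15 members of the Bcl2 family, 4 were higher and 5 lower with LPS. The survival gene Bcl2 (2.09) and the death-promoting Bbc3 (PUMA, 2.82), Bax (0.78) and Bid (0.40) were higher. The survival genes Mcl1 (-1.13), Bcl2a1b (-0.79) and Bcl2a1d (-0.51), and the death-promoting Bcl2l11 (BIM, -1.61) and Pmaip1 (-0.73) were lower. Bcl2a1b and Bcl2a1d are near-identical copies that can share reads, so the split between them is uncertain. Bcl2 read 44.9, 55.5 and 54.5 scaled TPM with LPS and 12.6, 10.8 and 10.7 with anti-IgM (adjusted p = 2.3e-07). Of 18 cell cycle inhibitors and quiescence genes, 3 were higher, Cdkn1a (1.61), Tsc22d3 (1.31) and Cdkn2b (1.13), and 6 lower, led by Btg1 (-2.35). Leaving out libraries or rescaling ended the calls of Bid (on the TPM as deposited or after quantile normalization, adjusted p up to 0.13), Bcl2a1d (without any 1 of LPS replicate 2, anti-IgM replicates 1, 2 and 3, plain OP9 LPS replicates 2 and 3 and plain OP9 anti-IgM replicates 1 and 2 or in a fit of the 6 libraries alone or with no expression filter, adjusted p up to 0.099) and Cdkn2b (without any 1 of LPS replicate 1 and anti-IgM replicates 2 and 3, adjusted p up to 0.075).

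**Figure D3:**
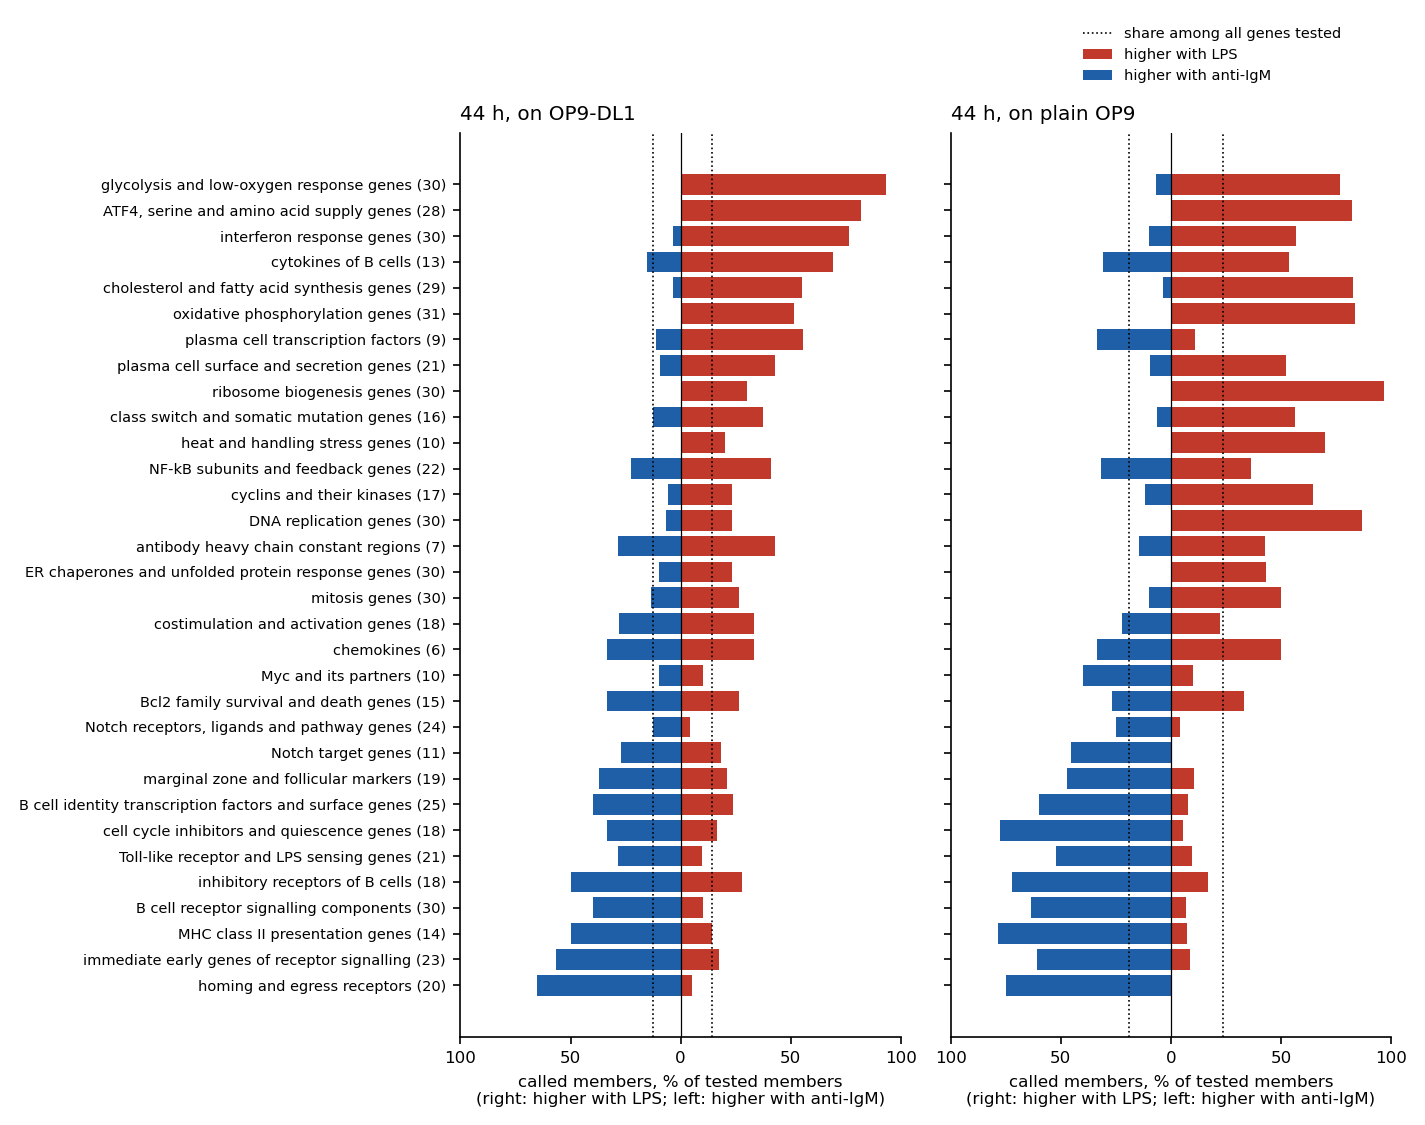
Bars give, for 32 gene groups with the number of tested members in brackets, the percentage of tested members called higher with LPS (red, to the right) or higher with anti-IgM (blue, to the left), on OP9-DL1 and on plain OP9 at 44 h; dotted lines give the share among all 12146 genes (14.4% and 12.7% on OP9-DL1, 23.6% and 18.9% on plain OP9). On OP9-DL1, glycolysis, amino acid and interferon genes reach furthest to LPS and homing receptors and immediate early genes furthest to anti-IgM, while the ribosome biogenesis and replication bars reach far to LPS only on plain OP9.

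Most of the stimulus contrast was shared with plain OP9, and part of it differed. Genes called on both stromas numbered 2395, which is 72.9% of those called on OP9-DL1 and 46.4% of those called on plain OP9, and 2348 of them had the same sign and 47 the opposite sign. The difference between the stromas, tested as the OP9-DL1 contrast minus the plain OP9 contrast, was called for 1531 of 12146 genes (12.6%), positive for 515 (4.24%) and negative for 1016 (8.36%). That split turned with scaling: the TPM as deposited gave 641 positive and 494 negative, 536 and 688 came from quantile normalization, and 644 and 699 from the log2 table of the authors. Over all 45 libraries 12 genes were called for the difference between stromas, and 247 over 35 libraries.

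The low-oxygen genes were more LPS-weighted on OP9-DL1. The stroma difference was called positive for 11 of 30 members of the glycolysis and low-oxygen list and negative for 0. Bnip3 read 67.5, 75.7 and 73.8 scaled TPM with LPS and 38.9, 55.7 and 25.4 with anti-IgM on plain OP9, where the LPS minus anti-IgM difference was 0.91 against 3.80 on OP9-DL1 (stroma difference 2.90 ± 0.35, SE; adjusted p = 0.00053). The LPS libraries of OP9-DL1 thus stood above all others. For Slc16a3 the 2 differences were 5.17 and 2.46 (adjusted p = 0.0012), for Aldoc 3.11 and 0.44, and for Ddit4, a mTORC1 inhibitor, 2.74 and -0.58. Mgarp, a mitochondrial protein of the low-oxygen response outside the list, had 3.96 and 0.53. Its stroma difference was not called on the authors' log2 values (limma, adjusted p = 0.11).

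Ltb differed in the same sense. It read 102, 89.8 and 80.6 scaled TPM with LPS and 58.5, 53.4 and 53.8 with anti-IgM on plain OP9, a difference of 0.70 against 3.80 on OP9-DL1 (adjusted p of the stroma difference = 0.00024). Quiescence genes followed for 8 of 18 members and none went the other way. Ccng2 was -0.43 on OP9-DL1 and -3.41 on plain OP9, Tsc22d3, the glucocorticoid-induced leucine zipper, 1.31 and -1.64, and Klf2 0.34 and -2.38. Also positive were 10 of 25 B cell identity genes, 8 of 20 homing receptors and 7 of 14 MHC class II genes, with medians of the stroma difference of 0.41, 0.76 and 0.75. The proline-rich coactivator Pnrc1 (2.91) and the kinase Sbk1 (2.95) had stroma differences of similar size. Ighg2b had a larger difference on OP9-DL1: plain OP9 libraries read 96.9, 75.4 and 92.8 with LPS and 5.40, 3.98 and 2.79 with anti-IgM (stroma difference 2.13; adjusted p = 0.00053). Some settings did not give the call of Ccng2 on OP9-DL1 (without any 1 of LPS replicates 1 and 3, anti-IgM replicates 1 and 2 and plain OP9 anti-IgM replicates 1 and 3 or in a fit of the 6 libraries alone or with no expression filter, adjusted p up to 0.13). In the stroma difference the calls of Klf2 (adjusted p up to 0.072) and Pnrc1 (adjusted p up to 0.068) were lost. For each this happened without any 1 of 8 of the 12 libraries or with no expression filter.

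Ribosome biogenesis genes gave the broadest negative stroma difference: 28 of 30 were called negative, with a median of -1.18 (-1.02 to -1.0 on the TPM as deposited and after quantile normalization). Npm1, nucleophosmin, read 2276, 1769 and 2426 scaled TPM with LPS and 1525, 1516 and 1506 with anti-IgM on OP9-DL1, and 1767, 1878 and 2057 and 632, 608 and 691 on plain OP9. The anti-IgM libraries lay higher on OP9-DL1 than on plain OP9 without overlap, and the LPS libraries of the 2 stromas overlapped. Myc went with them (0.08 on OP9-DL1 and 0.99 on plain OP9; adjusted p of the stroma difference = 0.00061). Replication genes were negative for 17 of 30, cholesterol synthesis genes for 13 of 29, heat and handling stress genes for 7 of 10 and cyclins for 6 of 17.

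Of 30 interferon genes 4 had a positive stroma difference, Oas1b (1.41), Irf1 (1.36), Isg20 (1.22) and Irf9 (0.96), and 1 a negative one, Bst2 (-0.63). The amino acid list was split between the stromas, with 5 positive and 7 negative members of 28. Asns read 153, 150.0 and 200.4 scaled TPM with LPS and 5.44, 4.95 and 4.77 with anti-IgM on plain OP9 (stroma difference -1.33; adjusted p = 0.011), while Trib3, Nupr1 and Ddit3 were positive (1.5, 2.35 and 1.65). Among chemokines Ccl4 (-2.41), Ccl3 (-2.07) and Ccl22 (-2.91) were negative, and so were Ccl2 (-2.92), Plac8 (-2.19) and Pcp4 (-4.36). Ccl22, which draws CCR4-bearing T cells, read 40.7, 40.9 and 54.4 with LPS and 6.13, 5.77 and 7.65 with anti-IgM on plain OP9, against 5.60, 3.64 and 5.39 and 6.36, 5.56 and 6.43 on OP9-DL1. Zbtb32, Oasl1 and Egr2 had stroma differences of -0.15, 0.05 and -0.42, none of which was called. Another setting ended the calls of Oas1b in the stroma difference (without any 1 of 4 of the 12 libraries, adjusted p up to 0.057), Bst2 in the stroma difference (without any 1 of 7 of the 12 libraries or on the TPM as deposited, after quantile normalization, on the authors' log2 values or with no expression filter, adjusted p up to 0.11) and Trib3 in the stroma difference (on the authors' log2 values or with a pseudocount of 0.1, adjusted p up to 0.52).

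**Figure D4:**
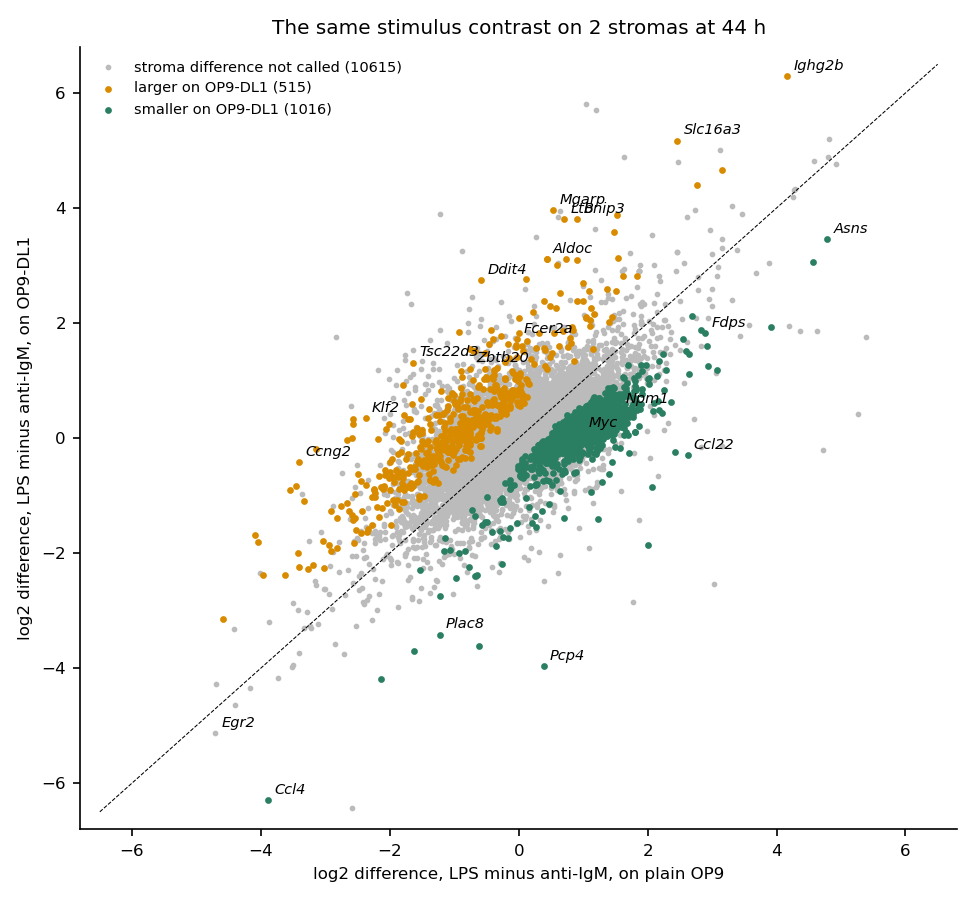
Each point is 1 of 12146 genes, with the LPS minus anti-IgM log2 difference on plain OP9 on the horizontal axis and the same difference on OP9-DL1 on the vertical axis at 44 h; the dashed line marks equal values, and orange and green points are the 515 and 1016 genes whose difference between stromas was called positive or negative. Bnip3, Slc16a3, Ltb and Mgarp lie above the line and Pcp4, Ccl22 and Ccl4 below it, while Egr2 lies near it.

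Levels at 20 h and 68 h on OP9-DL1 are described without a test, because the 3 LPS libraries of 20 h and LPS replicate 3 of 68 h are among those with Actb over 10000 TPM. Values in this paragraph and the next are TPM scaled over all 45 libraries, so the 44 h values differ slightly from those above. With LPS, Slc16a3 read 0.179, 0.669 and 0.347 at 20 h, then 128, 101 and 125 at 44 h and 223, 171 and 6.84 at 68 h, where the last value is the library that stood apart. Bnip3 read 45.5, 13.4 and 15.3 at 20 h, 498, 398 and 511 at 44 h and 536, 485 and 172 at 68 h. Its anti-IgM libraries stayed between 21.7 and 68.8 at all 3 times. Trib3 with LPS peaked at 44 h, with 6.28, 4.66 and 6.36 at 20 h, 74.2, 71.6 and 69.8 at 44 h and 26.4, 21.7 and 5.30 at 68 h.

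Other differences were present at each time measured. Ccl4 with anti-IgM read 535, 298 and 221 at 20 h, 240.4, 206 and 182 at 44 h and 122, 117 and 124 at 68 h, and no LPS library of the 3 times passed 4.51. Ighg2b with LPS read 276, 205 and 262 at 20 h and 624, 615 and 334 at 68 h, against 89.4, 46.2 and 58.9 in unstimulated cells of 68 h. All 9 anti-IgM libraries lay below those unstimulated values. Ltb stood in unstimulated cells at 699, 529 and 473, above both stimuli at 44 h. Igj, in contrast, changed direction. With anti-IgM it read 311, 188 and 229 at 20 h, 13.2, 12.3 and 15.8 at 44 h and 96.7, 78.8 and 112 at 68 h. With LPS it read 117, 104 and 99.7 at 20 h, 21.8, 22.3 and 24.6 at 44 h and 2.47, 0.611 and 1.80 at 68 h. The anti-IgM libraries lay above the LPS libraries at 20 h and 68 h. They lay below them at 44 h, where the 2 stimuli were closest.

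**Figure D5:**
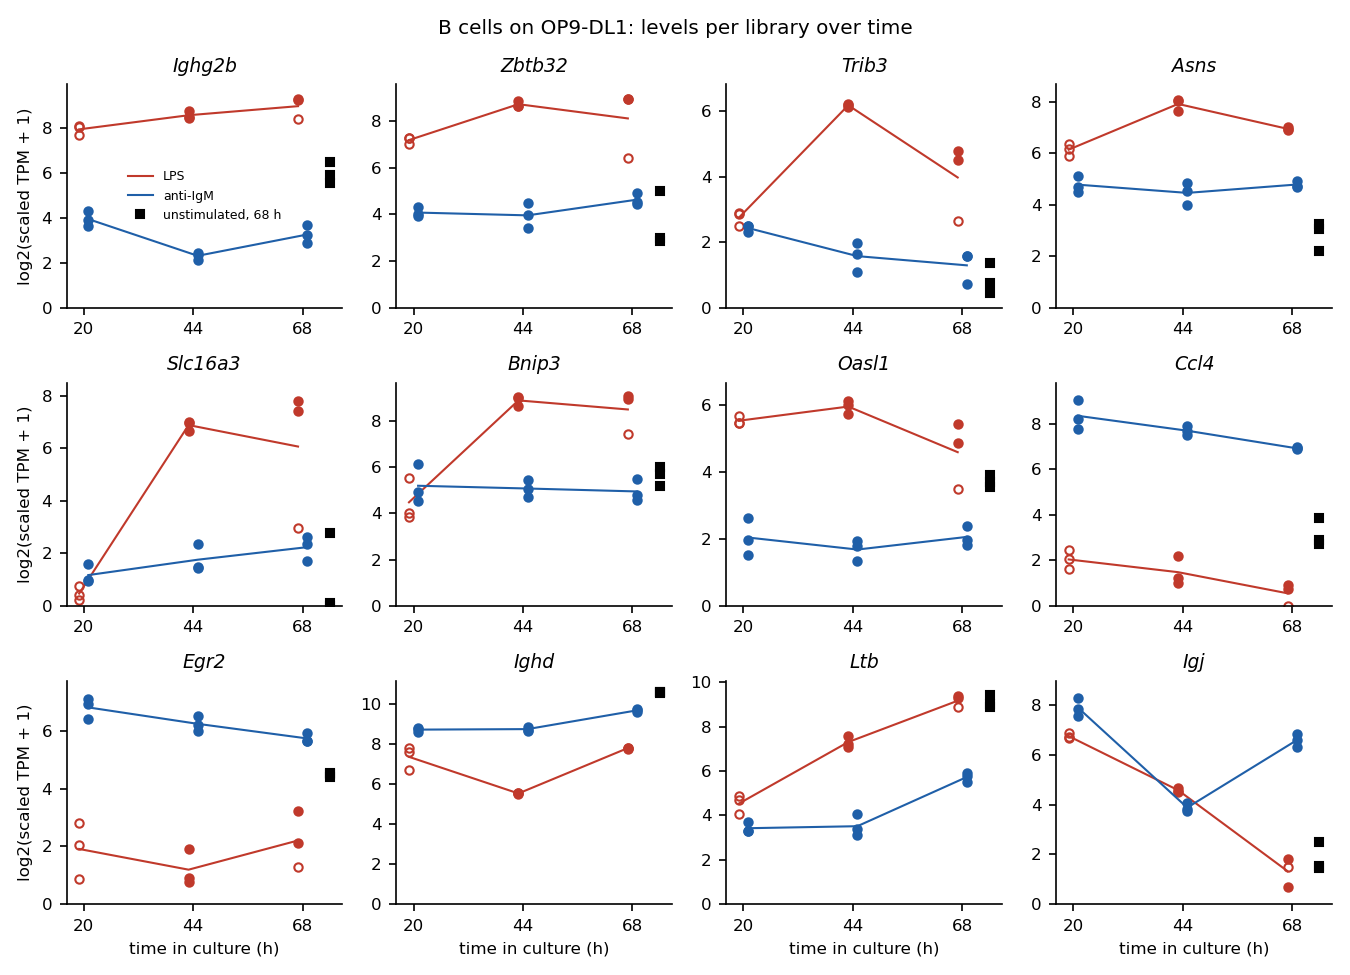
Each panel plots 1 gene in B cells on OP9-DL1 against hours in culture, with the log2 of TPM scaled over 45 libraries plus 1 on the vertical axis; points are libraries (red LPS, blue anti-IgM, black squares unstimulated at 68 h, drawn to the right), open points are libraries with Actb over 10000 TPM, and lines join the means of 3 libraries. Slc16a3, Bnip3 and Trib3 are lower at 20 h than at 44 h with LPS, and Ccl4 and Egr2 stay higher with anti-IgM at all 3 times. Igj is higher with anti-IgM at 20 h and 68 h and higher with LPS at 44 h, where the stimuli are closest.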

How the data were processed

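Bulk RNA-seq of mouse B cells was used: 45 libraries in 15 groups of 3, of which the 12 libraries of the 4 stimulated groups at 44 h entered the main test. The authors deposited TPM per gene symbol and, in a second table, log2 expression values. The tools kallisto and limma and the builds mm10 and GRCm38 are listed in the submitters' processing notes, with no version and no role. Per the series' design text, HiSeq and NextSeq500 machines were used; the machine of each library is not given in the sources used here, so its part in the results was not tested. TPM keep no depth. The deposited log2 values have 1 floor per library, read as 0.5 of a read, from which each library's reads were estimated.

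TPM were divided by median-ratio size factors and tested as log2(scaled TPM + 1) with limma 3.58.1 (trend and robust options) in R 4.3.3, with 4 group means. Genes needed 1 TPM in 3 of the 12 libraries. A call is a Benjamini-Hochberg adjusted p under 0.05. Only 44 h was fitted because 10 libraries at other times stood apart; a fit of all 45 was an alternative. The procedure was also run on simulated data, and the outcome is not given here. The genes, lists and tests were chosen with earlier results of these data known. Named were the 15 most positive and 15 most negative called genes and up to 4 called members per list, with no overlap between groups. The 10 largest stroma differences and standard markers were named too. The most positive and negative genes and the stroma differences had to reach 10 scaled TPM on average in 1 group, the list members not. Further list members were named after their values were seen. Alternatives changed the libraries fitted, scaling, pseudocount, filter, immunoglobulin genes, a replicate block or left out each library. Promoter sequences came from RefSeq (GRCm38.p6), matched by symbol for 8368 of 12146 genes. The results of some genes are not reported here.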

Additional observations from a re-analysis of the deposited data

Results flagged for a closer look

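For 84 of the genes named in the report or its figures, the LPS minus anti-IgM difference at 44 h was itself different between OP9-DL1 and plain OP9, by limma's test of the difference between the 2 contrasts with Benjamini-Hochberg adjustment over 12146 genes. Values below are OP9-DL1 minus plain OP9 on log2(scaled TPM + 1), from 3 libraries per group. Up to 10 of them were named for the size of this difference, and members of the gene groups were named after their values were seen, so their number says nothing about the share among all genes tested, which was 12.6%.

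The low-oxygen genes with such a difference were positive: Aldoc 2.68, Ankrd37 1.69, Bnip3 2.90, Ddit4 3.32, Egln3 2.20, Pdk1 1.14, Slc16a3 2.71 and, outside that list, Mgarp 3.43. Amino acid response genes were divided, with Ddit3 1.65, Nupr1 2.35, Sesn2 1.38 and Trib3 1.5 against Asns -1.33, Phgdh -0.76 and Psat1 -0.82. Of 30 interferon genes 4 were positive, Irf1 1.36, Irf9 0.96, Isg20 1.22 and Oas1b 1.41, and 1 negative, Bst2 -0.63. Among cytokines and chemokines, Ltb 3.10 was positive and Ccl2 -2.92, Ccl22 -2.91, Ccl3 -2.07 and Ccl4 -2.41 were negative. For 4 genes a group on 1 stroma is listed at 0, so the fitted value depends on the pseudocount: Cxcl10 0.99, Hbb-bh1 1.64, Il27 2.67 and Lpar3 -2.06.

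Antibody and plasma cell genes were Ighg1 -1.57, Ighg2b 2.13, Igj 1.34, Ikzf3 1.13, Mzb1 -0.74, Pdia3 -0.49, Zbtb20 1.96, Batf -0.56 and Exo1 -1.06. B cell identity, subset and antigen presentation genes were mostly positive: Cd1d1 1.24, Cd74 0.89, Cd79a 0.66, Cd79b 0.46, Ciita 1.0, Ebf1 1.29, Fcer2a 1.75, Fcrla 0.99, H2-Oa 0.91, H2-Ob 1.15 and Trib2 2.23, with Plac8 -2.19 negative. Homing and surface receptors were Ccr6 1.44, Ccr7 0.48, Cd40 0.63, Cd44 -0.71, Cxcr5 0.79, Fcgr2b 0.92, Gpr183 0.80, Lair1 1.81, S1pr1 1.43 and Tnfrsf18 1.43. Signal-responsive genes were Fos -1.13, Nfkbid -0.68, Nr4a1 -0.80 and Pcp4 -4.36.

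The growth and sterol genes were negative: Ccnb1 -0.66, Ccnd3 -0.84, Fdps -1.07, Kif20a -0.53, Mvd -0.83, Myc -0.91, Npm1 -1.06, Pcna -0.55, Rfc5 -0.62 and Tyms -0.80. Quiescence and related genes were positive: Ccng2 2.99, Klf2 2.72, Pnrc1 2.91, Sbk1 2.95 and Tsc22d3 2.95. Bcl2 family genes were Bax -0.56, Bcl2 1.04, Bcl2a1b -1.05, Bcl2a1d -1.08 and Bid -0.46. The calls of Batf, Bax, Bid, Bst2, Cd1d1, Cd40, Cd44, Cxcl10, Fos, Igj, Klf2, Lair1, Oas1b, Pdia3 and Pnrc1 were each lost without any 1 of at least 4 of the 12 libraries. After quantile normalization the difference of Cd74 was 0.07 (limma, adjusted p = 0.76), and those of Pdia3 (-0.13), Pcna (-0.22), Bid (-0.26), Rfc5 (-0.33), Bax (-0.33), Ccnb1 (-0.40) and Nfkbid (-0.45) were also more than 1.5 times smaller and no longer called. Those of Ccr7 (0.83) and Cd79b (0.79) were larger. The authors' log2 values ended 15 of the 84 calls, and a pseudocount of 0.1 ended 7. Cxcl10, Egln3, Hbb-bh1, Igj, Lair1 and Trib3 were lost under both. Trib3 was 0.70 on the log2 values and 0.76 with that pseudocount, and Cxcl10 was 0.61 on the log2 values. Il27, Lpar3 and Mgarp were lost on the log2 values (limma, adjusted p of 0.072 to 0.11), and S1pr1 with the pseudocount. Oas1b was 2.30 on the log2 values and 2.14 with the pseudocount.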

How the results depend on the processing

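Of 3286 calls on OP9-DL1, 446 remained among 454 with all 45 libraries in 1 fit, and 1352 among 1393 with the 35 libraries left after those with Actb over 10000 TPM, a fit added after seeing the data. On plain OP9 these fits called 1348 and 3142 genes in place of 5158, and for the stroma difference 12 and 247 in place of 1531. The cause was not tested. For all other settings the total of calls stayed within 1.5 times of the main total, but not always the count in 1 direction: the TPM as deposited gave 1063 in place of 1748 higher genes on OP9-DL1, 1766 and 3728 in place of 2865 higher and 2293 lower genes on plain OP9, and 494 in place of 1016 negative stroma differences. On OP9-DL1 these settings called 2692 genes with only its 6 libraries, 3141 on the TPM as deposited, 2992 after quantile normalization, 3229 on the authors' log2 values, 3216 with a pseudocount of 0.1, 2890 with no filter, 3015 with a filter at 5 TPM and 3297 without immunoglobulin genes. Leaving out 1 library gave 2611 to 3302 calls on OP9-DL1, 4303 to 5354 on plain OP9 and 1098 to 1375 for the stroma difference. With the replicate number as a block, 3055, 5006 and 1293 genes were called. Same-numbered libraries did not deviate together, so the numbers are not taken as pairs; the block ended the named calls of Bcl2a1d, Ccng2, H2-DMb1, Rasgrp3, Saa3 and Xbp1 on OP9-DL1 (limma, adjusted p of 0.051 to 0.073) and of Bid, Cxcl10, Igj and Lair1 in the stroma difference (0.052 to 0.075).

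Of 214 named genes called on OP9-DL1, 104 were also called with 45 libraries, 153 with 35, 196 of 212 with only the 6 libraries, 200 on the TPM as deposited, 206 after quantile normalization, 208 on the authors' log2 values, 208 with the block and 194 to 213 without 1 library. Of 84 named stroma differences, 6 were also called with 45 libraries, 22 with 35, 72 on the TPM as deposited, 66 after quantile normalization, 69 on the authors' log2 values, 80 with the block and 70 to 76 without 1 library. An estimated depth of 3560017 to 29087262 reads in the 12 libraries limits genes near 1 TPM most.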
